A study of Caenorhabditis elegans with 2 samples.

Results

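Long genes give RNA polymerase II the longest distance to travel, and the peaks described here lie along that distance. They are 4264 ChIP-seq peaks of AMA-1, the large subunit of Caenorhabditis elegans RNA polymerase II, whose summits lie inside autosomal protein-coding genes longer than 10 kb and over 500 bp from the annotated start and end of the gene. They were taken by position alone from the 30000 peaks that the authors listed from the pooled reads, of which 27242 are autosomal. They make up 14.2% of that list and 15.7% of its autosomal peaks. The authors name the list as peaks and background, so it is relaxed and single entries need not be sites of AMA-1. Ensembl holds 845 such long genes among 17242 autosomal protein-coding genes, and the interior of these genes open to the rule covers 13019839 bases, or 15.8% of the autosomes. The peaks lay in 708 of the 845 genes (83.8%), 11 of them inside more than 1 long gene, which makes 4275 pairs of a peak and a gene.

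The material was whole young adult worms of both sexes, in 1 group of 2 biological replicates, so the study holds no second condition. The strain was YL503, of genotype unc-119(ed3) III; vrIs110: the inserted construct carries unc-119(+) and AMA-1 fused to GFP and FLAG, followed by the AMA-1 3'UTR and transcribed from the pie-1 promoter, which is known for its activity in the germline. The labels list ama-1 as the antibody, chromatin was broken by sonication, and a control library that they mention was not used here. The labels do not say whether the antibody bound the tagged AMA-1, the endogenous protein or both. Whole worms hold all tissues, so fewer cells of a type with polymerase on a gene and less polymerase per cell cannot be told apart.

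RNA polymerase II starts at a promoter, moves through every exon and intron of a gene, and ends transcription past the site where the RNA is cut and polyadenylated. The polymerase is known to slow near both ends of genes in many animals. In C. elegans the introns of long genes also hold other genes, among them genes for tRNAs, snoRNAs and snRNAs. Genes for tRNAs are transcribed by RNA polymerase III, and genes for snRNAs by one polymerase or the other.

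A set of 5 windows shows what lay under some of the strongest of these peaks and under a peak of ama-1 itself. Each is 81 bases centred on the summit, from the reference genome WBcel235 (ce11), 5′ to 3′ on the strand of the host gene. The first pair stand for peaks on a small RNA gene nested in an intron, with the bases of that gene in capitals: T15B12.1 at chrIII:5294951-5295031 (plus strand, with a tRNA-Met gene on the opposite strand) and Y38F2AR.12 at chrIV:2408553-2408633 (minus strand, snoRNA gene Y38F2AR.14). The window of sms-3 at chrIII:1599119-1599199 (minus strand) stands for an intron with no annotated small RNA gene near, and the capitals mark a match, read on the other strand, to GTTCGANNC, the core of the internal promoter element (B box) of tRNA genes. The windows of lea-1 at chrV:10021005-10021085 and ama-1 at chrIV:4255470-4255550 (both plus strand) lie wholly in coding exons, which the capitals mark.
T15B12.1: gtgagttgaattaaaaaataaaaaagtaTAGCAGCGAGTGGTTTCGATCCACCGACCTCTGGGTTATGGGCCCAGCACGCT
Y38F2AR.12: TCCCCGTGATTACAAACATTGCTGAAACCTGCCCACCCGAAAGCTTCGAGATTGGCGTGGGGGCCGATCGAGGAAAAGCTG
sms-3: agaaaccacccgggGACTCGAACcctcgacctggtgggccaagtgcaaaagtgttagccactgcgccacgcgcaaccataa
lea-1: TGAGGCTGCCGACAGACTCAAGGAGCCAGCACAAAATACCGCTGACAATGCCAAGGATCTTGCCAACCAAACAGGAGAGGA
ama-1: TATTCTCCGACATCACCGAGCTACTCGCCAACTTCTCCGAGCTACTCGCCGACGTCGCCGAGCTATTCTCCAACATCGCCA

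The peaks inside long genes were weaker and less often shared between the replicates than autosomal peaks as a whole. Each of the 4264 is 304 bp wide with its summit in the middle, and each carries a signal, the authors' own value per peak. The median signal was 6.16 inside long genes (range 3.61 to 84.5, 90th percentile 11.8), against 6.95 over all autosomal peaks of the list (maximum 115.3, 90th percentile 15.6). The authors' −log10 q-value had a median of 0.690 inside long genes and 0.880 over all autosomal peaks, as a list that holds background can give. The authors also made a thresholded list of 732 peaks, chosen by the irreproducible discovery rate, which compares peak ranks between lists such as those of replicates. It held 17 of the 4264 peaks (0.399%, exact binomial 95% interval 0.232 to 0.638%), against 2.24% of all autosomal peaks. Such intervals cover the sampling of peaks only, since the files give no read counts and the depth of the libraries is unknown.

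A summit was counted as found in a replicate where it lay inside a peak of that replicate's own relaxed list. Of the 4264 summits, 53.0% were found in replicate 1 and 37.0% in replicate 2, 585 (13.7%, 95% interval 12.7 to 14.8%) were found in both, and 23.8% in neither, while 20.9% of all autosomal summits were found in both. Across the 585, the signals in the 2 replicates had a Spearman correlation of 0.19, given as a description of peaks that share libraries. The share found in both followed the pooled signal. It was 73.0% for the 100 strongest peaks, 33.0% for ranks 101 to 500, 24.0% for ranks 501 to 1000, 14.3% for ranks 1001 to 2000 and 5.17% for the other 2264. Most single summits inside long genes were thus found in 1 replicate or in the pooled reads alone. Where the rule was applied to the replicates' own lists, 3980 of 30000 peaks of replicate 1 lay in 735 long genes and 3514 of 27106 peaks of replicate 2 in 770.

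Density per length was close to that of the rest of the autosomes: 3.28 summits per 10 kb inside long genes and 3.30 per 10 kb elsewhere on the autosomes. In shorter genes, 4737 intronic summits had a median signal of 6.47 and 16.1% of them were found in both replicates, and 3450 summits in coding exons had a median of 6.84 with 17.3% in both. The thresholded list held 1.25% of these shorter-gene intronic summits and 0.290% of those in coding exons.

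Most of these peaks were intronic, as most of the bases are. Of the 4264 summits, 3312 lay in introns (77.7%, against 75.7% of the bases open to the rule), 834 in coding exons (19.6%, against 22.7% of the bases) and 118 in exonic UTR sequence (2.77%, against 1.59% of the bases). The densities were 3.36 per 10 kb in introns, 2.83 in coding exons and 5.69 in UTR exons. Median signals lay closer together, at 6.03 in introns, 6.46 in coding exons and 7.31 in UTR exons. UTR exons also had the highest share found in both replicates, 25.4%, against 13.0% in introns and 15.1% in coding exons. The last of 10 equal bins of the gene held 65 of the 118 UTR summits (55.1%) and 38.9% of the UTR bases.

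Introns of up to 2000 bp held more summits per length than longer ones. The density was 3.92 per 10 kb both in introns of up to 100 bp and in those of 101 to 500 bp, 4.13 in those of 501 to 1000 bp and 3.75 in those of 1001 to 2000 bp. It was 2.79 in introns of 2001 to 5000 bp, 2.86 in those of 5001 to 10000 bp and 3.21 in those over 10000 bp. The first intron of the canonical transcript (the one of longest coding sequence) held 481 summits at 3.25 per 10 kb, and later introns 2610 at 3.39 per 10 kb.

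Along the gene body the density was nearly flat in the middle and higher toward both ends. Cut into 10 equal bins from start to end, long genes held 3.59 summits per 10 kb in bin 1, between 3.01 and 3.35 in bins 2 to 8, 3.54 in bin 9 and 4.21 in bin 10 (exact Poisson 95% interval 3.81 to 4.64 in bin 10 and 2.73 to 3.31 in bin 7, the lowest). Introns alone showed the same course, with 3.71 per 10 kb in bin 1, 3.09 in bin 7 and 4.25 in bin 10. In coding exons the values ran only from 2.51 in bin 5 to 3.17 in bin 10, with intervals that overlap in all 10 bins. The median signal differed little between bins, from 5.88 to 6.37.

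Measured in base pairs, the rise lay within about 2 kb of the gene end and 1 kb of the start. Summits 501 to 1000 bp from the end stood at 4.66 per 10 kb and those 1001 to 2000 bp from it at 4.04, against 3.04 for summits over 5000 bp from both ends. On the other side, 501 to 1000 bp from the start, the density was 4.28, and 1001 to 2000 bp from it 3.31. Just outside the rule, the last 500 bp of the same genes held 7.42 summits per 10 kb with a median signal of 8.62, and 36.0% of those were found in both replicates. The share found in both was 14.2% at 501 to 1000 bp from the end. The first 500 bp held 4.46 per 10 kb with 19.6% found in both.

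**Figure D1:**
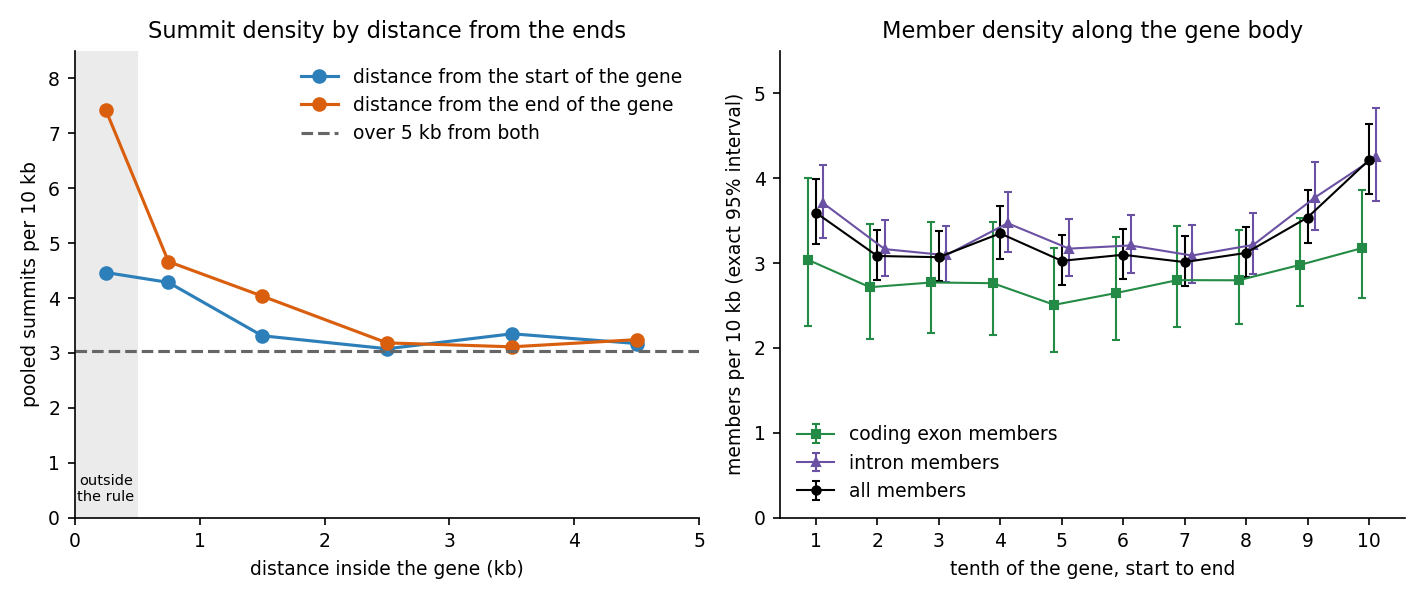
Left, pooled AMA-1 summits per 10 kb (y) against distance inside the gene from its start or its end (x, kb), with the mean of bases over 5 kb from both ends as a dashed line; the grey band is the 500 bp left out by the rule. Right, summits per 10 kb in 10 equal bins of the gene from start to end, for coding exons, introns and all, with exact 95% Poisson intervals; the last bin stands at 4.21 against 3.01 to 3.35 in bins 2 to 8.

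Many of the strongest peaks lay on small RNA genes or within 500 bp of them. Of the 17 peaks in the thresholded list, 10 lay within 500 bp of an annotated tRNA, snRNA or snoRNA gene. By class, 15 were in introns and 2 in coding exons. No tRNA, snRNA, snoRNA or miRNA gene and no other coding gene lay within 500 bp of 6 of the 17. The 6 include the ints-8 peak described below, which lay inside the RNase P RNA gene, a class not counted here as small RNA. All 17 were found in both replicates, with signals of 10.6 to 47.3 in replicate 1 and 5.02 to 50.3 in replicate 2. The thresholded list was chosen by agreement of peak ranks, so being found in both is not separate support for these peaks. They belong to 15 genes, 7 of the peaks being on chromosome III. The rank of a peak and the nearness of a small RNA gene moved together: 26.0% of the 100 strongest peaks lay within 500 bp of one, against 0.883% of the weakest 2264.

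Below the highest signal, 84.5, came a peak of 80.3 (33.0 in replicate 1 and 50.3 in replicate 2) in intron 5 of ints-8, which encodes a subunit of the Integrator complex. It lay inside rpr-1, the gene of the RNase P RNA. T15B12.1 had 55.3 (24.7 and 20.9) over the tRNA-Met gene shown above.

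In unc-70, which encodes β-spectrin, a summit of 47.7 (18.1 in replicate 1 and 19.7 in replicate 2) lay inside the non-coding gene K11C4.7 and within 500 bp of a snoRNA gene. The Y38F2AR.12 peak of 43.8 (19.9 and 20.3) had its summit inside snoRNA gene Y38F2AR.14. In mix-1, an SMC protein of condensin and of the dosage compensation complex, a peak of 40.2 (33.3 and 12.1) lay 67 bp from snoRNA gene M106.6. Each of these was the strongest peak of its host gene.

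In lea-1 and sms-3 strong peaks had no annotated tRNA, snRNA, snoRNA or miRNA gene beside them. In lea-1, which encodes a protein of the late embryogenesis abundant family known from desiccation tolerance, 3 peaks were in the thresholded list. They had 40.7 (27.6 in replicate 1 and 7.83 in replicate 2) in intron 2, inside the non-coding gene K08H10.15, 35.8 (16.3 and 15.2) in exon 4, the window printed above, and 32.2 (11.2 and 20.2) in intron 7. The median over its 14 peaks, 14.7, was the highest of the 393 genes with at least 5. In sms-3, a sphingomyelin synthase gene, a peak in intron 2 had 31.2 (18.6 and 11.9), 5421 bp from the nearest annotated non-coding gene. Another 5 peaks of the thresholded list lay within 500 bp of a tRNA or snoRNA gene. In ida-1, a protein of dense-core vesicles, the peak had 35.7 (25.4 in replicate 1 and 14.4 in replicate 2) in exon 3, 38 bp from a tRNA gene, and in kel-8 it had 29.4 (17.1 and 7.52) inside a tRNA gene. The other 3 were near snoRNA genes: 33.6 in elf-1 (10.6 and 6.58), 33.3 in acsd-1 (16.6 and 13.6) and 31.1 in Y55F3BR.2 (21.7 and 5.02).

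Just under the lowest signal of the 17, 28.2 in scc-2, stood ckk-1 with 27.4, rol-3 with 27.2, miz-1 with 26.2 (not found in replicate 2) and eel-1 with 26.0. After these came myo-6 with 25.8 in exon 3, vab-10 with 25.7 inside a tRNA gene, and dhgd-1 with 25.5, whose summit lay 78 bp from the end of dnj-13. The Fanconi anaemia gene fcd-2 had 25.4, with its summit 57 bp from the start of Y41E3.8. The peaks of ckk-1, rol-3, myo-6, vab-10 and fcd-2 all lay within 500 bp of an annotated small RNA gene.

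Counted by nested gene, 22 of 35 tRNA genes that lie wholly inside the bodies of long genes had a summit within 500 bp (62.9%), as had 31 of 52 snoRNA genes (59.6%), 13 of 26 miRNA genes and 5 of 12 snRNA genes (41.7%). No share for other places of the same length stands beside these, so they do not show an excess by themselves. In all, 88 summits lay within 500 bp of a small RNA gene (2.06%, against 0.987% of the bases), with a median signal of 8.97. Of these 88, 39 (44.3%) were found in both replicates. The 27 summits near a tRNA gene had the highest median, 15.5, followed by 8.72 for 43 near a snoRNA gene. Which polymerase gave the signal at these genes was not tested.

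**Figure D2:**
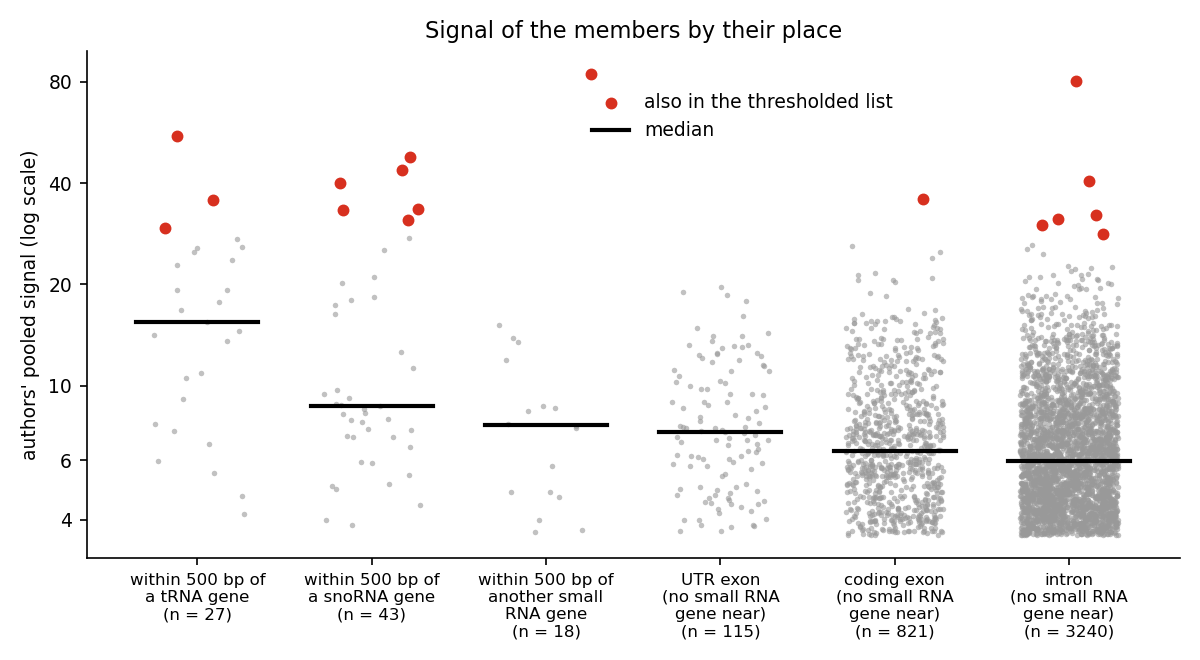
The authors' pooled signal of each of the 4264 peaks (y, log scale), grouped by a tRNA, snoRNA or other small RNA gene within 500 bp and otherwise by UTR exon, coding exon or intron; bars are medians and red points are the 17 peaks in the thresholded list. Medians run from 15.5 near tRNA genes to 5.98 in introns without a small RNA gene near. RNase P RNA was not counted as a small RNA, so the ints-8 peak of 80.3 inside rpr-1 is plotted under intron.

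The sequence under the peaks was searched for letters of known elements. Within 150 bp of the summit on each side, GTTCGANNC on either strand occurred in 146 summits (3.42%), against 2.39% of 42837 windows of that length tiled over the same gene bodies. It occurred in 5 of the 17 thresholded peaks and in 19 of the 100 strongest, against 2.65% of the weakest 2264. Only 18 of the 146 lay within 500 bp of an annotated tRNA gene, with a median signal of 16.6, and the other 128 had a median of 6.78. The match in sms-3 printed above is among the 128. Base composition also moved with signal: the median GC content was 35.5% both for the 4264 summits and for the windows, 39.9% for the 100 strongest and 45.2% for the 17 thresholded peaks. The polyadenylation signal AATAAA occurred in 46.1% of the summits and 44.4% of windows, and the 3′ splice site core TTTTCAG in 33.1% and 30.7%, both read on either strand. A match to such letters is a description of the window and not a site of binding.

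The share of the peaks in or beside other protein-coding genes was close to the share of the bases. Of the 4264 summits, 195 lay inside another protein-coding gene (4.57%, against 4.996% of the bases), 101 within 500 bp of the start of one (2.37%, against 2.13% of the bases) and 101 within 500 bp of the end of one (2.37%, against 2.04%). The gene with the most peaks was an exception: cox-6B, a subunit of cytochrome c oxidase, spans 87197 bp because of 1 intron of 86515 bp that holds 13 other protein-coding genes. It had 38 peaks, 36 of them inside or within 500 bp of the start or end of those genes. Its strongest, with 30.1 (13.0 in replicate 1 and 21.9 in replicate 2), lay 150 bp from the start of swsn-3.

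The other genes with many peaks carried them in their own exons and introns. After cox-6B came gcn-1, a regulator of the kinase GCN2, with 28, lmd-3 with 25, and the plasma membrane calcium ATPase gene mca-3 and the spectraplakin gene vab-10 with 24 each. Filamin (fln-1), ppfr-1, the afadin gene afd-1 and rhgf-3 had 21 each. The kinase genes mbk-2 and egl-4 and the transcription elongation factor gene ell-1 had 20 each, and zfp-1, the Piezo channel gene pezo-1 and Y48C3A.5 had 19 each. Of the 15, 11 hold no other coding gene. The replicate lists alone gave these genes many summits too, with 22 in replicate 1 and 21 in replicate 2 for gcn-1, and 15 and 16 for fln-1. In vab-10 all 24 lay in the first 41060 bp from the start, and the last 16507 bp of the gene had none.

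Over all 845 genes, the median was 4 peaks per gene (interquartile range 1 to 7), or 2.94 per 10 kb. The peaks were unevenly spread, and 175 genes (20.7%) held 50% of the pairs. Neighbouring summits in a gene were a median of 1284 bp apart (interquartile range 712 to 2476 bp). Longer genes had more peaks (Spearman 0.31 across 845 genes) while length and density had a Spearman correlation of −0.02, as had the share of coding sequence and density. The density of a gene in the replicate 1 list and that in the replicate 2 list had a Spearman correlation of 0.56 and a Pearson correlation of 0.61 across the 845 genes. These are descriptions, since genes share the 2 libraries.

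**Figure D3:**
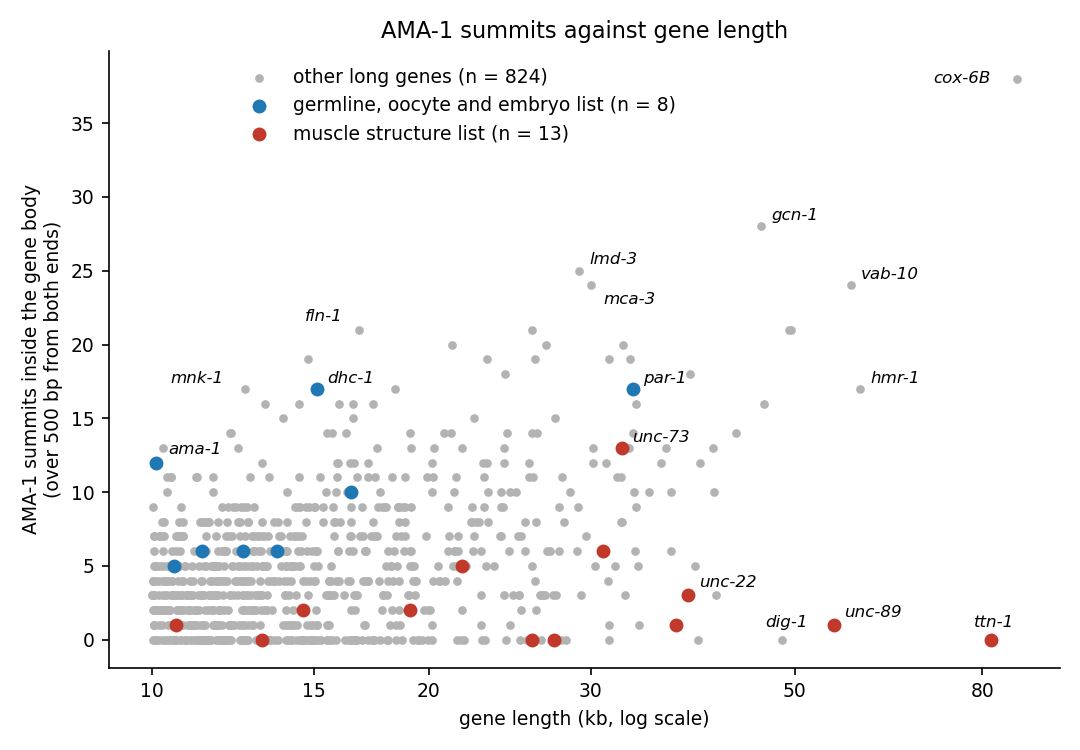
Number of AMA-1 summits inside each of the 845 long autosomal genes (y) against gene length (x, kb, log scale), with genes of the germline, oocyte and embryo list in blue and of the muscle structure list in red. cox-6B has 38 at 87197 bp and ttn-1 has 0 at 81724 bp.

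The 10 genes with the most peaks per length were mnk-1, a MAP kinase-interacting kinase, with 17 peaks (14.6 per 10 kb), the NAD kinase gene nadk-2 (14.003), zfp-1, the AF10 homologue (13.8), fln-1 (13.3), ama-1 (13.2), the kinase anchor gene akap-1 (13.0), T24B8.7 (12.6), let-711, which encodes the NOT1 scaffold of the CCR4-NOT deadenylase (12.5), the cytoplasmic dynein heavy chain gene dhc-1 (12.04) and Y111B2A.12 (11.9). All 10 had at least 5 summits in each replicate list, for example 17 and 15 for mnk-1 and 12 and 9 for dhc-1. Of the 17 peaks of mnk-1, 9 were found in both replicates, and their signals of 5.31 to 21.7 had a median of 12.9.

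Where a gene is nearly all exon, its peaks were exonic. In dhc-1, 90.6% of the gene is coding and 15 of its 17 peaks lay in coding exons, with a median signal of 9.69. T24B8.7, with 72.7% coding, had 11 of 14 in coding exons, and vps-13, with 86.4%, had 9 of 11. In Y111B2A.12, which is 8.66% coding, 15 of 16 were in introns.

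The gene of the immunoprecipitated protein was itself densely covered. Over the 10100 bp of ama-1 (chrIV:4248070-4258169, plus strand) lay 12 peaks, with signals of 3.71 to 24.98 and a median of 12.7, against 6.15 for the peaks of all other genes. This median had rank 3 among the 393 genes with at least 5 peaks, after lea-1 and mnk-1. Of the 12, 7 lay in coding exons and 5 in introns, 10 were found in replicate 1 with signals of 4.18 to 16.5, and 3 in replicate 2 with signals of 3.08 to 6.65. The strongest, with a pooled signal of 24.98 and with 6.36 in replicate 1 and 6.65 in replicate 2, lay in exon 10. Its window printed above holds 4 copies of the first 6 residues of the heptad that repeats along the C-terminal domain and is phosphorylated during transcription, out of 20 copies in the protein of 1856 residues. The strain carries a second ama-1 sequence in its construct, and reads of that copy and of the endogenous gene cannot be told apart.

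**Figure D4:**
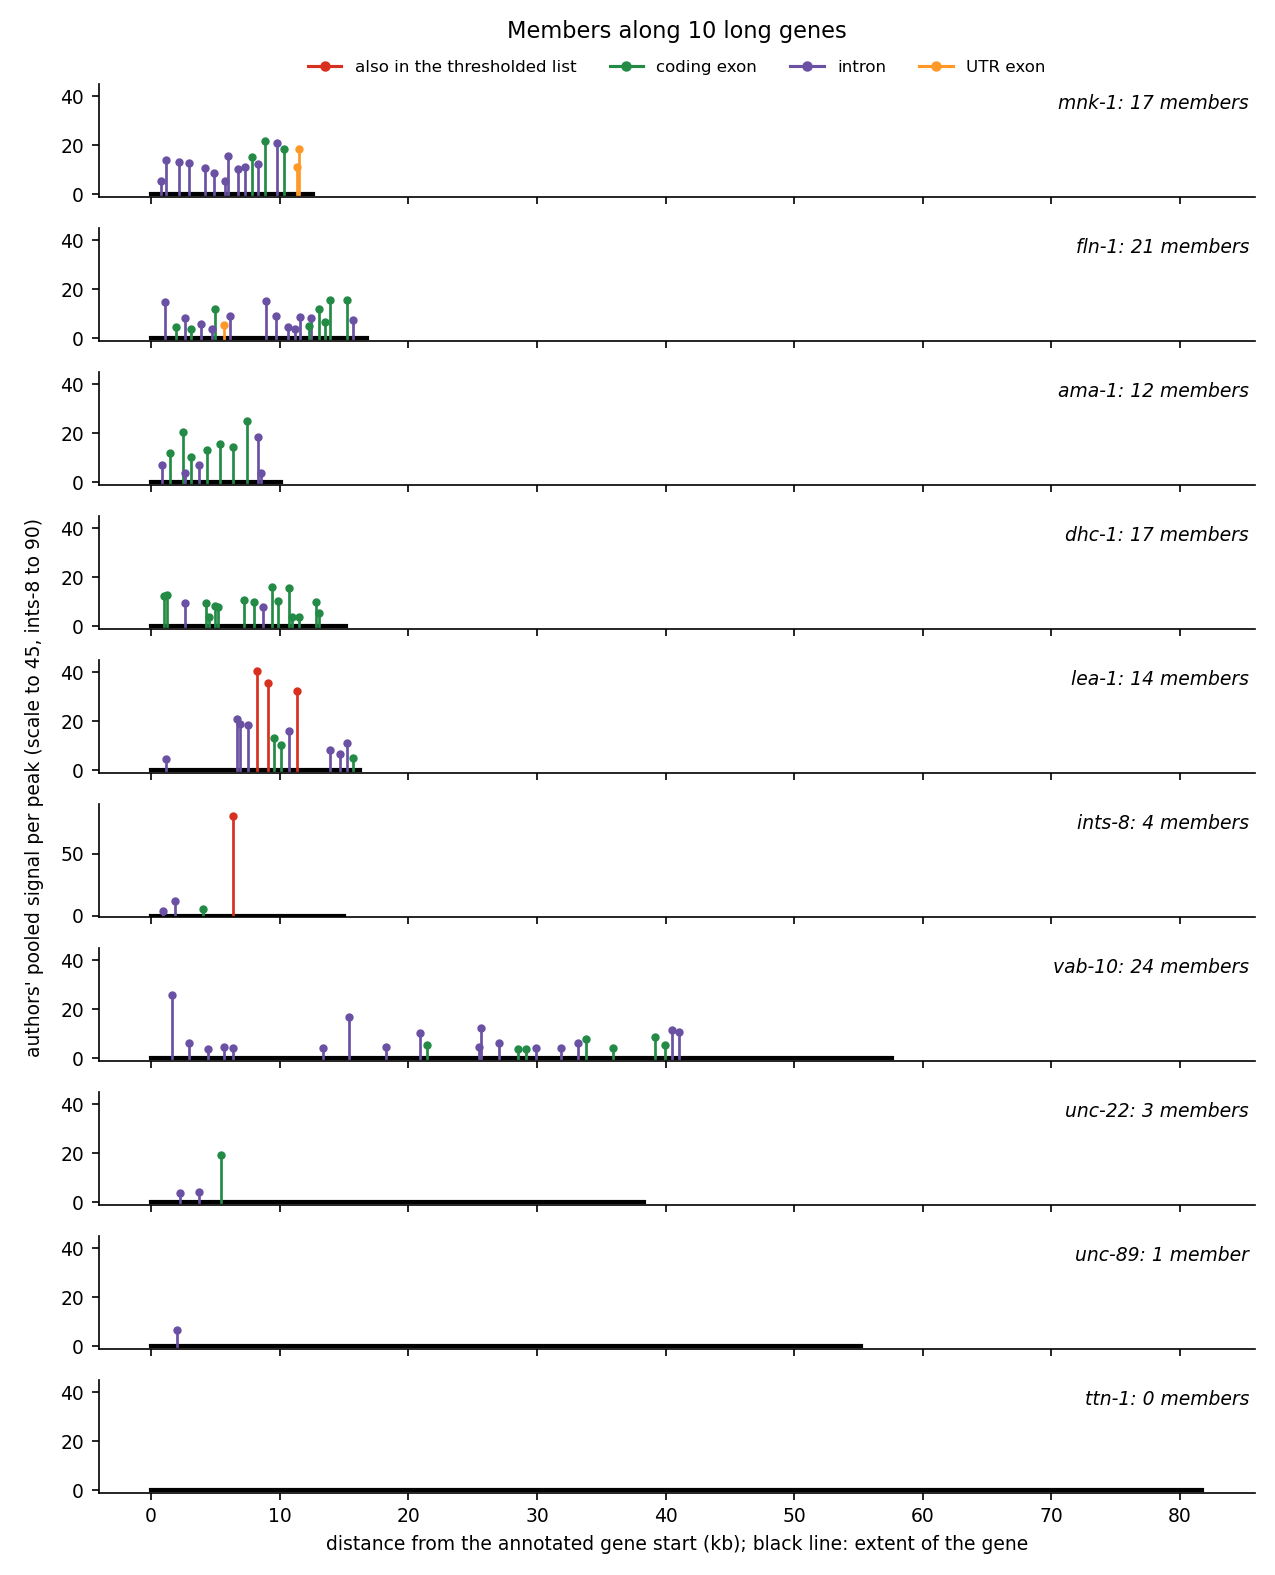
The authors' pooled signal of each peak (y, scale to 45, for ints-8 to 90) against its distance from the annotated start of the gene (x, kb) in 10 long genes; black bars show the extent of the gene and colours mark coding exon, intron, UTR exon and the thresholded list. mnk-1, fln-1, ama-1 and dhc-1 have peaks along the body, while unc-22, unc-89 and ttn-1 have 3, 1 and 0.

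Several very long genes of muscle and the nervous system had few peaks or none. The titin gene ttn-1, 81724 bp long, had 0 in the pooled and the replicate 1 list and 11 in that of replicate 2, with signals of 2.099 to 5.57. unc-89, which encodes the giant sarcomere protein obscurin, had 1 peak in 55184 bp, with a signal of 6.66, and 7 and 4 in the replicate lists. dig-1, a giant protein of the basement membrane, had 0 in 48457 bp, with 5 in replicate 1 and 2 in replicate 2, and cla-1, a protein of the presynaptic active zone, had 0 in 39308 bp, with 0 and 2. The twitchin gene unc-22 had 3 in 38311 bp, of which 1, in exon 9, reached 19.3 (13.1 in replicate 1 and 11.005 in replicate 2). Among the 10 longest genes, the others were cox-6B with 38, gcn-1 with 28, vab-10 with 24, afd-1 and rhgf-3 with 21 each, the classical cadherin gene hmr-1 with 17 and the insulin receptor gene daf-2 with 16. Of the 10, 3 had at most 1 peak.

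Gene lists written from general knowledge of gene function, with earlier results of these data known, had the same order of density in the pooled list and in each replicate. Because the construct is transcribed from a germline promoter and the protein that the antibody bound is not given, all polymerase on a gene and tagged polymerase alone cannot be told apart in these densities. Over all 845 long genes the density, with a summit counted once for each long gene it lies in, was 3.27 per 10 kb for the pooled list, against 3.06 and 2.70 for the lists of replicates 1 and 2. The 8 long genes of a germline, oocyte and embryo list stood at 6.86 per 10 kb (exact Poisson 95% interval 5.43 to 8.55). Their density was 6.60 in replicate 1 and 5.47 in replicate 2. Such intervals, here and for the lists below, cover the counting of summits and not the spread between the genes of a list. All 8 had peaks and all 8 lay above the median gene: ama-1 at 13.2, dhc-1 at 12.04, the poly(A) polymerase gene gld-2 at 6.47, the ERK gene mpk-1 at 5.80, the polarity genes par-1 at 5.26, par-3 at 5.19 and par-2 at 4.73, and mel-11, a regulator of myosin phosphatase, at 5.23. Both genes at the top, ama-1 and dhc-1, are used in somatic cells as well as in the germline. The value of the list includes ama-1, where reads of the construct copy and of the endogenous gene cannot be told apart.

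The 18 long genes of a chromatin and transcription factor list stood at 4.86 per 10 kb (4.10 to 5.71), with 4.20 in replicate 1 and 4.36 in replicate 2. The SWI/SNF gene let-526 had 16 peaks, the FOXO gene daf-16 14, the CREB gene crh-1 13 and the forkhead gene fkh-7 12, while lin-29, a zinc finger gene of developmental timing, had 0. The 20 genes of a signalling and trafficking list, at 3.38 (2.80 to 4.04), lay near the value of all long genes. There vps-13 had 11 peaks, the JIP3 gene unc-16 6, sos-1, a Ras activator, 11 and the engulfment receptor gene ced-1 6, while che-3, a dynein heavy chain of cilia, had 0.

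The remaining lists lay below the value of all long genes. The 35 genes of a list of neuronal channels and synapse proteins stood at 1.95 per 10 kb (1.63 to 2.32), with 2.42 in replicate 1 and 2.01 in replicate 2. In that list the CaM kinase II gene unc-43 had 11 peaks, the kinesin gene unc-104 and the sodium leak channel gene nca-2 4 each, and the muscarinic receptor gene gar-3 1. The 29 genes of an adhesion, matrix and cytoskeleton list stood at 1.56 (1.26 to 1.91), with 1.80 and 1.89 in the replicates, and 17 of the 29 had no peak. Here fln-1, at 13.3, was far above the rest, and vab-10, unc-70 and hmr-1 had 24, 4 and 17 peaks.

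The 13 genes of a muscle structure list were lowest, at 0.860 per 10 kb (0.596 to 1.20), with 1.49 in replicate 1 and 1.19 in replicate 2. Of their 34 peaks, 13 were in unc-73, a guanine nucleotide exchange factor known mainly from axon guidance, 6 in the dystrophin gene dys-1, 5 in the IP3 receptor gene itr-1 and 3 in unc-22. Besides ttn-1, the calcium channel genes egl-19 and unc-68 and the kettin gene ketn-1 had none. Only 1 of the 13 lay above the median gene.

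**Figure D5:**
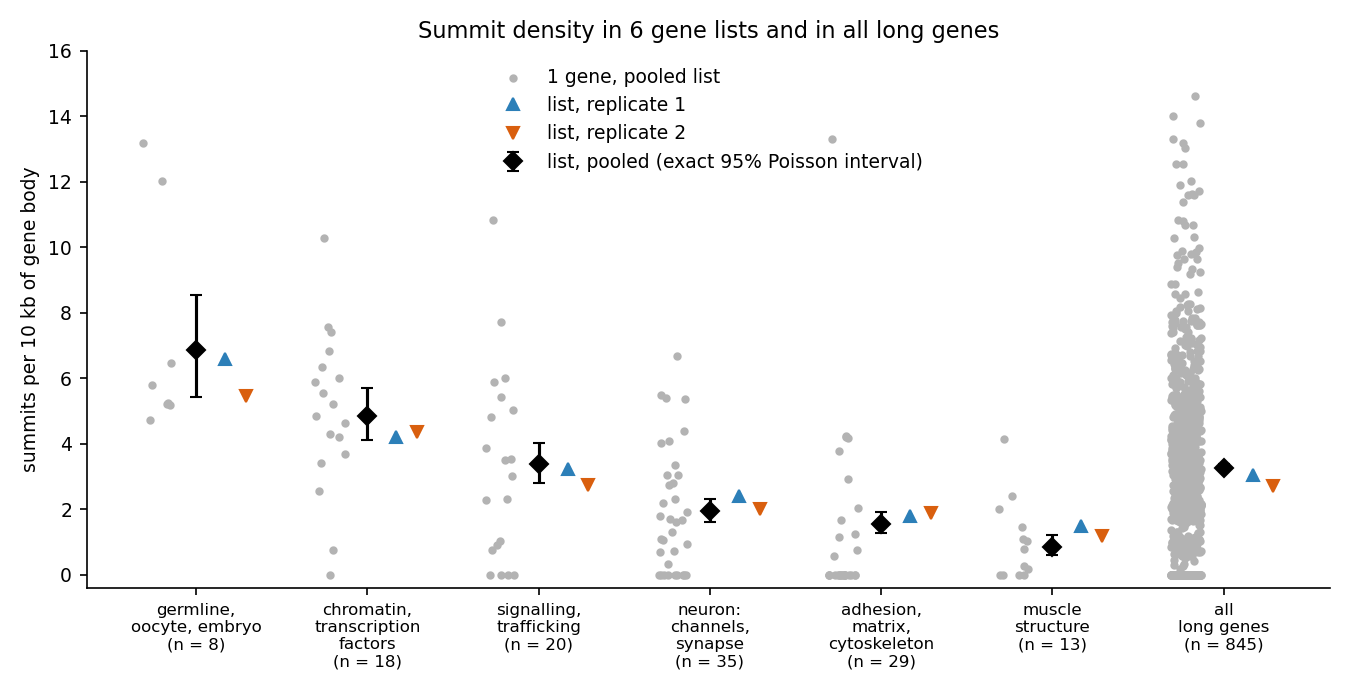
Summits per 10 kb of gene body (y) for 6 gene lists and for all 845 long genes; grey points are single genes in the pooled list, black diamonds are whole lists with exact 95% Poisson intervals, and triangles are the lists in replicate 1 and replicate 2. The germline, oocyte and embryo list stands at 6.86 and the muscle structure list at 0.860, against 3.27 for all.

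Genes with peaks along the body mostly also had a summit close to their own end, which the rule does not use. Here a summit counted within 500 bp of the annotated end on either side, so also past the gene, where it may belong to a neighbour. Such a pooled summit was present in 82.5% of the 120 genes with at least 10 peaks. It was present in 12.4% of the 137 genes with none, and in 55.7% of all 845. Within 500 bp of the annotated start on either side, the shares were 66.7%, 5.11% and 43.4%. By list, a summit within 500 bp of the end on either side was present in 8 of 8 germline, oocyte and embryo genes. It was present in 83.3% of the chromatin and transcription factor genes and in 23.1% of the muscle structure genes. Genes without peaks had a median length of 13486 bp, against 13946 bp over all long genes, and more of their sequence was coding, a median of 29.04% against 18.1%.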

How the data were processed

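The labels name the samples as 2 biological replicates of 1 group. The authors deposited peak lists on ce11 and ce10, of which only those on ce11 were used, with positions given from 1. Each peak has a signal, the authors' own value, and a −log10 q-value, both as deposited, used to describe and rank peaks within a list. For the alignment and peak calling tools, names were not given in the sources used here. Genes came from Ensembl release 115 (WBcel235), tRNA products and sequence from RefSeq.

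Peaks were read with pandas 2.3.3, numpy 2.4.6 and scipy 1.17.1 under Python 3.11.15, and drawn with matplotlib 3.10.9. A base counted as coding exon, UTR exon or intron over all transcripts of its gene. Placement was tested on simulated summits. No hypothesis was tested: shares have exact binomial and densities exact Poisson 95% intervals. The rule named the 15 genes with most peaks, the 25 strongest peaks, the 10 longest and 10 densest genes, up to 4 per list with the longest empty gene, and ama-1. The place and sequence of the strongest peak are not reported here. The remaining germline and muscle genes were named after their values were seen. Members and lists were chosen with earlier results of these data known. Alternatives changed the list, replicate, length limit, distance limit, exon set and neighbours.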

Additional observations from a re-analysis of the deposited data

How the results depend on the processing

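Of 114 values recomputed under other settings, 75 stayed within the 95% interval of the reported value (a count, within 1.5 times it), 39 did not, and no gene list changed its side of the density of all long genes. The thresholded list left 17 peaks in 1.78% of the genes, with 88.2% in introns and 58.8% within 500 bp of a small RNA gene. The first of 3 parts of the gene held 23.5%, and the median signal was 35.7. The share found in both replicates was 100%, which the choice of that list by agreement of ranks favours. The 15000 strongest pooled peaks left 1721 in 67.1% of the genes, with 74.1% in introns, 0.988% in the thresholded list, 3.83% near a small RNA gene, a median of 9.14 and 25.5% in both. Genes over 5 kb gave 7874 peaks in 72.2% of the genes, 72.3% intronic, with a median of 6.30. Genes over 20 kb gave 1429 in 89.5%, 82.1% intronic, with a median of 5.92 and 12.3% in both. A limit of 250 bp from the gene ends gave 76.1% in introns and 32.1% in the first part, and a limit of 1000 bp gave 78.6% and 29.9%. Exons of the canonical transcript alone gave 79.9% in introns. Without peaks near small RNA genes, 0.168% were in the thresholded list. With 1 replicate left out, the share of genes with a peak was 87.0 to 91.1% and the share in introns 73.6 to 76.9%.

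Chosen after seeing the data, the ratio of a list's density to that of all long genes was recomputed. For muscle structure genes it was 0.263, and 0.441 to 0.489 in single replicates, for neuronal genes 0.596, and 0.746 to 0.791, and for adhesion genes 0.477, and 0.591 to 0.699. Among summits found in both replicates it was 0.448 for neuronal genes and 3.29 for germline genes (2.097 in the pooled list). These 2 ratios rest on only 13 neuronal and 17 germline summits, 3 of the latter in ama-1. Among the strongest 15000 the ratio was 3.15 for germline genes. The cause of these shifts was not tested. Since the thresholded list has no share of itself, and replicate lists neither a pooled signal nor a share in both, those values were not computed. No paired analysis was possible because the study has 1 group. The files give no read counts, so what depth limits is unknown.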

Other observations

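Long genes of the X chromosome, which the rule leaves out, held fewer summits than the autosomal ones described above. Of 151 X-linked genes over 10 kb, 57.0% had a pooled summit over 500 bp from both ends, at 1.58 per 10 kb. The density of the rest of the X chromosome was not computed, so the lower value need not be particular to long genes. Among the autosomes the density was 3.61 per 10 kb on chromosome III, 3.40 on IV, 3.17 on II, 3.13 on I and 2.96 on V. Long genes in the centre of an autosome, the middle of 3 equal parts, held 3.01 per 10 kb and 71.3% of them had a peak, against 3.36 per 10 kb and 88.3% in the outer parts. Genes just under the length limit, over 8000 and up to 10000 bp, held 3.55 per 10 kb, and those over 10000 and up to 12000 bp held 3.34.

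Summits near piRNA genes, short genes that are densely packed on chromosome IV, were weak. The 165 inside long genes and within 500 bp of a piRNA gene made up 3.87% of the summits and 4.94% of the bases, had a median signal of 5.36, and 5.45% of them were found in both replicates. GAGAGAG, on either strand, occurred within 150 bp of 6.64% of the summits and in 4.72% of windows of the same length tiled over the genes, and within 150 bp of 16 of the 100 strongest summits.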
